A study of Rattus norvegicus with 6 samples.

Results

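Genes of hyaluronan synthesis, turnover and binding, with the hyalectans that assemble on it, were compared between young and old VSM cells of the rat soleus feed artery (SFA). They were taken by gene symbol from a list of 10, of which 8 had a row among the 14475 genes of the count table, namely the synthases Has1, Has2 and Has3, the hyaluronidase Hyal2, Cemip, Cd44, Vcan and Acan. Hyal1 and Hapln1 had no row under these symbols and were not analysed here. The young group was 3 cultures from male Fischer 344 rats aged 4 months and the old group 3 cultures from males of the same strain aged 24 months, grown in the same serum-containing medium with no treatment named, with 1 polyadenylated RNA library per culture. The passage number of the cultures was not stated. Total counts per library ranged from 44235674 to 59700887, and values are given as CPM, counts scaled to the normalized library size. Differences are log2 fold changes of old against young from edgeR's quasi-likelihood test, with a standard error (SE) and a Benjamini-Hochberg adjusted p over all genes, and a gene was called differentially expressed (DEG) at an adjusted p under 0.05 when its log2 fold change also reached 1 in size. The paper's own tool, the DESeq2 Wald test, was run on the same counts.

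Hyaluronan is a long unsulfated sugar polymer that synthases in the plasma membrane extrude directly into the extracellular space. It is cut outside the cell and at the cell surface, and the fragments are degraded in lysosomes. Versican and aggrecan, the large chondroitin sulfate proteoglycans called hyalectans, bind hyaluronan through their N-terminal domain, and link proteins stabilize that bond. Smooth muscle cells of arteries are known producers of hyaluronan and versican, whereas aggrecan is best known from cartilage.

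In old VSM cells each library had less Acan and Cd44 than any young library, and Acan was called by DESeq2 but not by edgeR. Has1 was above the young range in each old library with an adjusted p above 0.05, and Has2, Has3, Hyal2, Cemip and Vcan overlapped between the ages. Acan had a mean of 268.5 ± 116 CPM in young and 11.1 ± 11.0 CPM in old (SD, n = 3 each), and Cd44 413 ± 14.5 and 230 ± 38.3 CPM. edgeR called 0 of the 8 genes, beside a background of 0.00691% of all genes, and limma-voom called 0 as well. An unadjusted p under 0.05 was reached by 3 of the 8 in edgeR (Acan, Cd44 and Cemip), against 22.6% of all genes, and 3 of the 8 had groups that did not overlap (Acan and Cd44 below, Has1 above), against 29.2% of all genes. DESeq2 called 1 of the 8, Acan, against 5.56% of all genes. With 8 genes, 3 of them is close to either background share, and nothing is read from these counts. The median log2 fold change of the 8 genes was 0.05 and that of all genes 0.02, with 4 of the 8 higher and 4 lower.

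**Figure D1:**
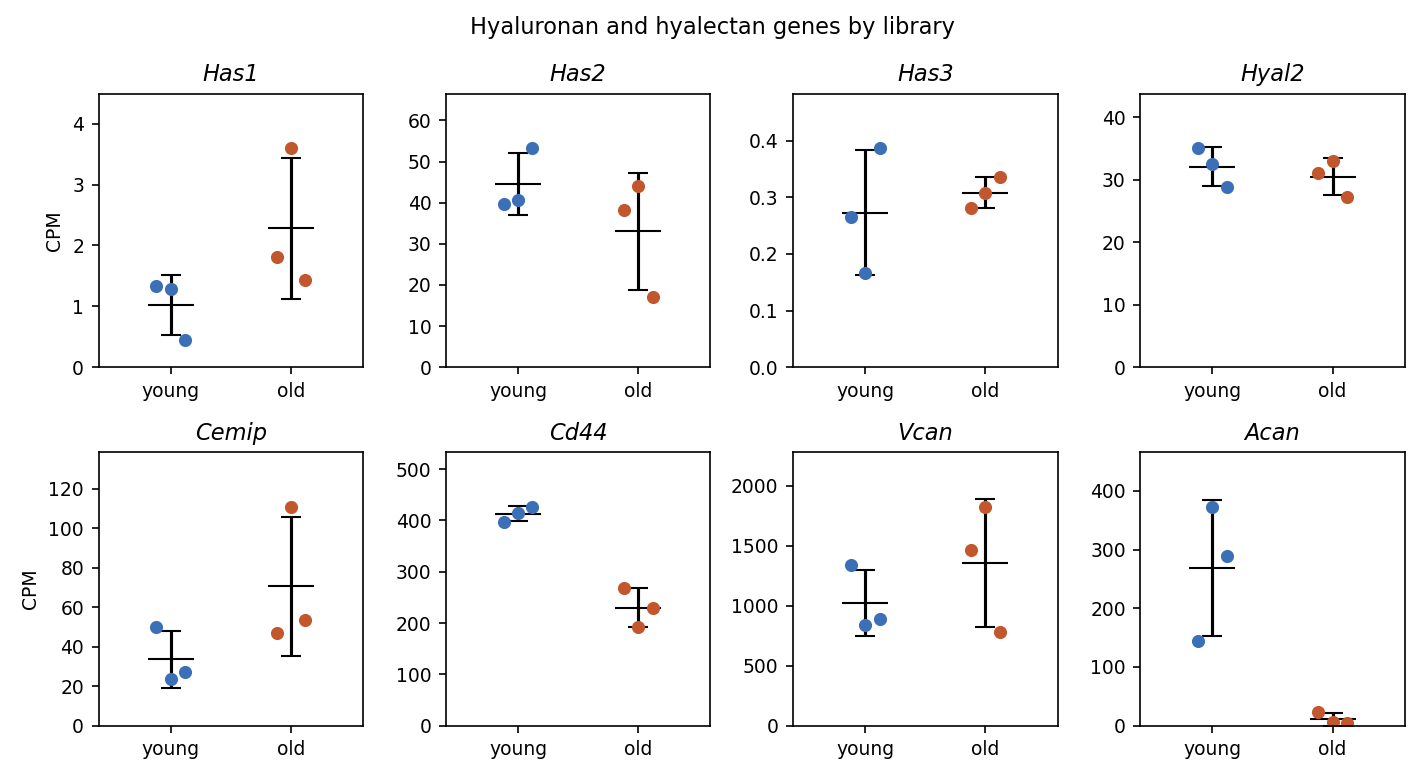
CPM of the 8 genes in each library (points, young in blue and old in orange), with the group mean (wide tick) and SD (error bars, n = 3) and a linear axis from 0 in each panel. The 3 old libraries of Acan lie between 3.77 and 23.8 CPM, below the young libraries at 144 to 373, and those of Cd44 lie between 192 and 268 CPM, below the young at 398 to 427.

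The region around the transcription start is shown for the 3 genes at an unadjusted p under 0.05, the genes with the smallest p of the 8 in edgeR. Windows from RefSeq (assembly GRCr8), from 250 bases before the start to 50 after it, were used for 6 of the 8 genes, and those of Has2 and Has3 were not analysed here. Capitals mark matches, on either strand, to the GC box (GGGCGG), the TATA box (TATAAA), the CCAAT box, the MCAT element (CATTCC), the AP-1 site (TGANTCA) or the CArG box bound by SRF. Such a match is a description of the letters, and the counts do not show which start site was used in these cells.
Acan, chr1:142390701-142391000, plus strand: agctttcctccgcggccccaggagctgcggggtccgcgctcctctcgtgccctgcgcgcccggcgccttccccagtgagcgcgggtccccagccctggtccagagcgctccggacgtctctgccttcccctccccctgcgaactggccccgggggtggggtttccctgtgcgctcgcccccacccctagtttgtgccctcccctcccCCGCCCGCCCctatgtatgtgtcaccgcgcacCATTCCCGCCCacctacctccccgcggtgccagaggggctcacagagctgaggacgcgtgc
Cd44, chr3:109699375-109699674, minus strand: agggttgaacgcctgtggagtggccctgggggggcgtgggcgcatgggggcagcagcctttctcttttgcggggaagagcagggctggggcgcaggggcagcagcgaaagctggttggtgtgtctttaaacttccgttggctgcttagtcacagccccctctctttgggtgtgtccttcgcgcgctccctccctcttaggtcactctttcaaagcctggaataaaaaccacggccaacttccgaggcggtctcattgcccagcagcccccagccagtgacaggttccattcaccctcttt
Cemip, chr1:147471434-147471733, minus strand: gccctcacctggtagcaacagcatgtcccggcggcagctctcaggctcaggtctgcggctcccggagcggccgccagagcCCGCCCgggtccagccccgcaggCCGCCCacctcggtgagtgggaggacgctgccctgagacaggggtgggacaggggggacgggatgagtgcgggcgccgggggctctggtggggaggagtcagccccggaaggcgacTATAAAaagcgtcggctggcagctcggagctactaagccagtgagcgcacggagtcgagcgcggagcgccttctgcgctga

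The Acan window was 73% G and C, compared with a median of 51.7% over all 33469 windows. It held 3 GC boxes, a motif found in 33.1% of all windows, and 1 MCAT element, found in 14.2%, which overlaps the last GC box. The Cemip window held 2 GC boxes and 1 TATAAA, which occurs in 14.2% of all windows. None of the 6 motifs was found in the windows of Cd44 and Has1. A CArG box, the sequence through which SRF drives many contractile genes, occurred in 1.64% of all windows and in 0 of those of the 6 genes.

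Of the 3 synthases, Has2 was the one with substantial reads. Has2 (ENSRNOG00000004854), which makes most hyaluronan of mesenchymal cells, had 39.7, 40.7 and 53.2 CPM in young replicates 1, 2 and 3 and 38.1, 44.1 and 17.0 CPM in the old. The groups overlapped, and old replicate 3 stood below the other libraries. The log2 fold change of Has2 was -0.43 (SE 0.35, adjusted p = 0.477 from edgeR), and it was -0.12 without old replicate 3. Has1 (ENSRNOG00000010994), which is induced by inflammatory signals in many cells, had 1.33, 1.28 and 0.448 CPM in young and 1.81, 3.60 and 1.44 CPM in old. Each old library of Has1 lay above each young library, on counts of 22 to 77 in young and 77 to 187 in old. Its log2 fold change was 1.16 (SE 0.54, adjusted p = 0.252 from edgeR and 0.172 from DESeq2), which fell short of a call, and without old replicate 2 it was 0.67. Has3 (ENSRNOG00000059362), the synthase known for shorter chains, was near the floor of the table, with 12, 10 and 19 counts in young and 14, 16 and 18 in old. The groups of Has3 overlapped and no difference was called (log2 fold change 0.18, SE 0.41, adjusted p = 0.807 from edgeR), and its sign turned to -0.08 without young replicate 2.

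Of the genes that break hyaluronan down, Hyal2 and Cemip differed from each other in how steady they were. Hyal2 (ENSRNOG00000031420), a hyaluronidase anchored at the cell surface that cuts large polymers, had 35.1, 32.5 and 28.8 CPM in young and 31.1, 33.1 and 27.2 CPM in old. The ages overlapped throughout, with a log2 fold change of -0.08 (SE 0.12, adjusted p = 0.722 from edgeR) and a coefficient of variation of 9.8% in young and 9.78% in old. Cemip (ENSRNOG00000012442), a secreted hyaluronan-binding protein needed for depolymerization in fibroblasts, had 50.1, 23.7 and 27.1 CPM in young and 47.1, 111 and 53.8 CPM in old. Old replicate 2 was the highest of the 6 libraries, while young replicate 1 lay between old replicates 1 and 3, so the groups overlapped. The old mean of Cemip was 2.1 times the young mean (log2 fold change 1.07, SE 0.42, unadjusted p = 0.042, adjusted p = 0.208 from edgeR and 0.08 from DESeq2). Without old replicate 2 the log2 fold change was 0.58, and without young replicate 1 it was 1.47, and DESeq2 called Cemip without young replicate 1 and without old replicate 1.

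Cd44 (ENSRNOG00000006094), the main cell surface receptor for hyaluronan and an adhesion molecule linked to the actin cytoskeleton, was the gene of the 8 with the smallest p in edgeR, at rank 176 of the 14475 genes. It had 398, 415 and 427 CPM in the young libraries and 268, 192 and 229 CPM in the old. All old libraries lay below all young libraries, and the young replicates had a coefficient of variation of 3.51%, compared with a median of 9.94% over the 12257 genes above a mean of 1 CPM. The young mean was 1.8 times the old mean. The log2 fold change was -0.85 (SE 0.14, adjusted p = 0.0636 from edgeR and 1.27e-05 from DESeq2), so that it passed neither threshold in edgeR and the one for p alone in DESeq2, which 12.2% of all genes passed. Without old replicate 1 the log2 fold change was -0.97 and the adjusted p from edgeR 0.0276, in a fit that called 732 of all genes. Without young replicate 2 the adjusted p from edgeR was 0.234. With any library left out the log2 fold change stayed between -0.97 and -0.74. The genes whose log2 CPM ran most like that of Cd44 over the 6 libraries were Eml1 (Pearson's r = 0.998), Rhno1 (0.997) and Prkar2a (0.997). These are descriptions of 6 libraries that fall into 2 age groups. The log2 fold change of Eml1, a microtubule-associated protein, was -1.18 (SE 0.16, adjusted p = 0.0531 from edgeR), that of Rhno1 -0.27 and that of Prkar2a -0.74. Splice forms of Cd44 were counted together, so the balance of its variants is not shown by these values.

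Of the hyalectans, Acan (ENSRNOG00000028992), which encodes aggrecan, had 144, 373 and 288 CPM in young replicates 1, 2 and 3 and 23.8, 5.71 and 3.77 CPM in the old, on counts of 6502 to 22444 in young and 202 to 1182 in old. The lowest young library was well above the highest old library, and old replicate 1 was the highest of the old. The young mean was 24.2 times the old mean, a log2 fold change of -4.60 (SE 0.83, adjusted p = 0.0648 from edgeR, 0.0524 from limma-voom and 9.51e-10 from DESeq2). Among 3 libraries against 3 an exact permutation test cannot give a two-sided p under 0.1, which is what it gave for Acan, Cd44 and Has1. Without old replicate 1 edgeR called Acan, at a log2 fold change of -5.82 (adjusted p = 0.0262), in a fit that called 732 of all genes. With each of the other libraries left out the log2 fold change was at most -4.19. In those fits edgeR did not call Acan, and its adjusted p rose to 0.233 without young replicate 2. DESeq2 called Acan with any 1 library left out. In bulk RNA, fewer cells that express a gene and less of its RNA per cell cannot be told apart.

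Vcan (ENSRNOG00000029212), which encodes versican, the hyalectan of the vessel wall, was in the top percent of the table by mean CPM. It had 1341, 840 and 888 CPM in young and 1466, 1825 and 779 CPM in old. The ages overlapped, with old replicate 3 the lowest of all libraries and old replicate 2 the highest. The log2 fold change of Vcan was 0.41 (SE 0.35, adjusted p = 0.501 from edgeR), from 0.13 without old replicate 2 to 0.69 without old replicate 3. Old replicate 3 was thus the lowest library for Has2, Hyal2, Vcan and Acan.

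**Figure D2:**
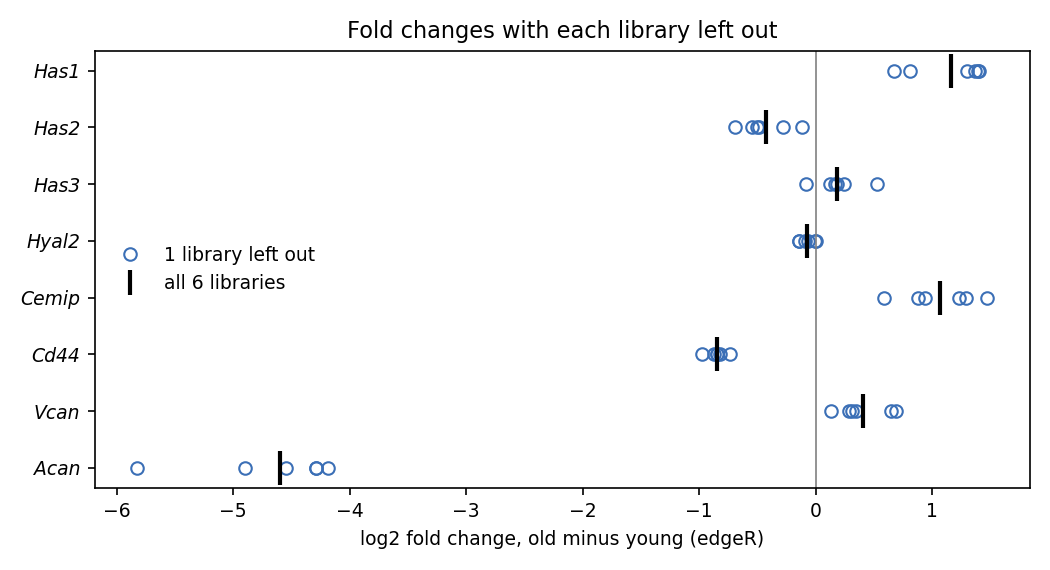
Log2 fold change of old against young from edgeR for the 8 genes, with all 6 libraries (black tick) and after each single library was left out (open circles). Acan stays between -5.82 and -4.19 and Cd44 between -0.97 and -0.74, while the circles of Has3 fall on both sides of 0.

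The wider pathway was described with 70 symbols, of which 58 had a row (Tmem2 is an older name of Cemip2). In edgeR and limma-voom 0 of the 58 were DEGs, and 14 had an unadjusted p under 0.05 in edgeR, against 22.6% of all genes. DESeq2 called 7, of which 6 were higher (2.25% of all genes) and 1 was lower in old (3.31% of all genes). Their median log2 fold change was 0.12, beside 0.02 for all genes, with 35 higher and 23 lower. The DESeq2 calls were Adamts5, Adamts15, Tlr4, Gfpt2, Mmp14 and Chst13 upward and Hapln3 downward. With each single library left out DESeq2 still called Adamts5 and Adamts15, whereas Tlr4 lost its call without old replicate 3 and Hapln3 without young replicate 2. Gfpt2 was still called only without young replicate 1 or old replicate 1, and Chst13 only without old replicate 1 or 2, its log2 fold change in edgeR being 1.33 without old replicate 3.

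Proteases that cleave hyalectans included the largest difference of the pathway. Adamts15 (ENSRNOG00000009892), a protease that cuts versican and aggrecan, had 0.399, 0.532 and 1.26 CPM in young and 15.0, 24.2 and 52.8 CPM in old, on counts of 18 to 62 and of 747 to 2829. The groups were far apart, with a log2 fold change of 5.39 (SE 0.68, adjusted p = 0.0531 from edgeR and 1.74e-17 from DESeq2), and it was between 4.74 and 6.02 with each library left out. Adamts5 (ENSRNOG00000057794), the main aggrecanase of mouse cartilage, had 27.4, 20.0 and 5.96 CPM in young and 45.8, 136 and 82.1 CPM in old. Each old library exceeded each young one, with a log2 fold change of 2.31 (SE 0.63, adjusted p = 0.123 from edgeR and 0.00148 from DESeq2). Adamts4, another aggrecanase, had means of 15.8 ± 8.44 and 16.2 ± 10.4 CPM (SD, n = 3 each). Adamts1, the most abundant of the 6, ranged from 160 to 477 CPM in young and from 158 to 952 CPM in old, and its log2 fold change of 0.44 became -0.53 without old replicate 3. Each old library thus had less Acan and more Adamts15 than any young library, and RNA levels do not measure cleavage.

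**Figure D3:**
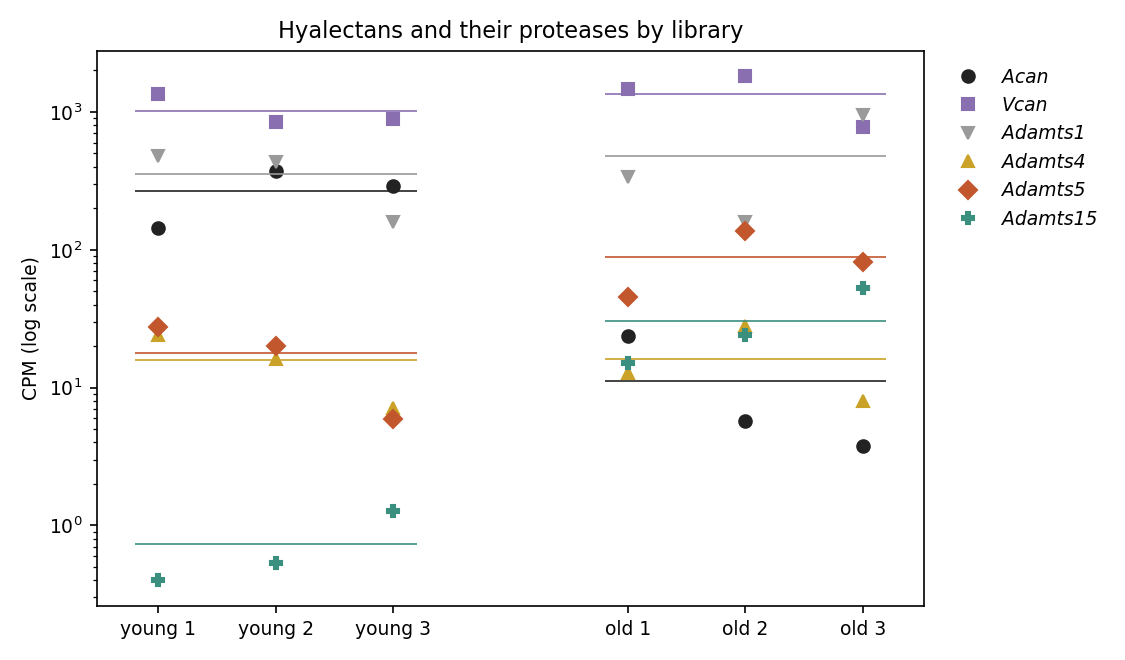
CPM on a log axis of Acan, Vcan and 4 proteases that cleave them, in each library, with horizontal lines at the group means. Acan lies at 144 to 373 CPM in young and 3.77 to 23.8 in old, while Adamts5 and Adamts15 are higher in each old library than in any young library and Vcan overlaps.

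Other genes of hyaluronan breakdown were all on the higher side. Of 5 such genes, 5 had a positive log2 fold change, from 0.20 to 0.70 with a median of 0.56, and 3 had an unadjusted p under 0.05 (11.2% of all genes upward). Over all genes, 7534 of 14475 were higher, with a median of 0.02, and edgeR called 0 of the 5. Hyal3, a hyaluronidase relative, had 11.3, 12.5 and 9.34 CPM in young and 13.3, 18.3 and 22.2 CPM in old (log2 fold change 0.70, SE 0.21, adjusted p = 0.146 from edgeR). Cemip2, a transmembrane relative of Cemip, had 30.5, 28.8 and 27.4 CPM in young and 44.2, 46.9 and 32.7 CPM in old (log2 fold change 0.51, SE 0.15, adjusted p = 0.136). Both had separate groups and reached an adjusted p under 0.05 in DESeq2 (0.0439 and 0.0472), below the fold threshold. Hexa, a lysosomal enzyme that trims the fragments, had 124, 145 and 125 CPM in young and 130, 192 and 259 CPM in old. The groups of Hexa overlapped (log2 fold change 0.56, SE 0.25, adjusted p = 0.235 from edgeR). Its log2 fold change was 0.29 without old replicate 3.

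Of the 7 enzymes that make the sugar nucleotides for hyaluronan, 6 had a negative log2 fold change, each with overlapping groups. The median of the 7 was -0.19, and edgeR called 0 of them. Ugdh, which makes UDP-glucuronic acid and had the highest mean of them over the 6 libraries, had 491, 379 and 175 CPM in young and 326, 342 and 151 CPM in old (log2 fold change -0.35, adjusted p = 0.655 from edgeR). The exception was Gfpt2, an isoform of the entry enzyme of the hexosamine pathway, at 66.7, 64.4 and 26.4 CPM in young and 79.1, 161 and 124 CPM in old. Its old libraries lay above the young (log2 fold change 1.21, SE 0.41, adjusted p = 0.17 from edgeR and 0.0339 from DESeq2). The lowest log2 fold change of the list was that of Uap1, at -0.80 (SE 0.74, adjusted p = 0.531 from edgeR). Uap1 ranged from 104 to 621 CPM within young and from 81.0 to 351 CPM within old.

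Receptors and binding partners were mixed. Of 6 further receptors 4 were higher, with a median log2 fold change of 0.01, beside 0.02 for all genes. Of 6 further binding and crosslinking genes 5 were higher and 1 lower, with a median of 0.52. In the latter list 1 gene, Hapln3, had separate groups, against 29.2% of all genes. Tlr4, an innate immune receptor that hyaluronan fragments are reported to engage, had 11.6, 13.2 and 11.7 CPM in young and 19.2, 25.4 and 35.8 CPM in old, with separate groups (log2 fold change 1.14, SE 0.23, adjusted p = 0.0767 from edgeR and 0.000524 from DESeq2). Hmmr, a hyaluronan-binding protein of the mitotic spindle, had 72.8, 43.7 and 72.2 CPM in young and 48.7, 11.4 and 8.41 CPM in old, so that old replicate 1 lay among the young libraries. The log2 fold change of Hmmr was -1.46 (SE 0.68, adjusted p = 0.252 from edgeR). Without old replicate 1 it was -2.66 and called by edgeR, in a fit that called 732 of all genes. In the same libraries the summed level of 10 proliferation genes was 717, 435 and 720 CPM in young and 520, 157 and 104 CPM in old, and the part of proliferation in the value of Hmmr was not tested. Hapln3, a link protein that is the relative of Hapln1 found in vessels, had 22.7, 20.2 and 10.6 CPM in young and 6.77, 8.70 and 5.41 CPM in old. Its old libraries lay below the young (log2 fold change -1.36, SE 0.32, adjusted p = 0.103 from edgeR and 0.00202 from DESeq2). Ptx3, which helps to crosslink hyaluronan, ranged from 2.46 to 105 CPM within young and from 4.07 to 190 CPM within old, and its log2 fold change of 0.60 turned to -1.91 without old replicate 2.

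Of the proteins that act on Cd44, moesin (Msn), which links its tail to actin, had 1315, 1340 and 1645 CPM in young and 1192, 703 and 686 CPM in old. The groups of Msn did not overlap, though old replicate 1 was close to the young (log2 fold change -0.74, SE 0.25, adjusted p = 0.172 from edgeR, 0.0464 from DESeq2). Mmp14, a membrane protease that can shed Cd44, had 414, 447 and 499.6 CPM in young and 628, 933 and 1724 CPM in old (log2 fold change 1.27, SE 0.36, adjusted p = 0.13 from edgeR and 0.00886 from DESeq2). The log2 fold change of Mmp14 was 0.78 without old replicate 3, and DESeq2 did not call it without that library or without young replicate 1 or 2. The related linkers Ezr and Rdx had log2 fold changes of 0.31 and -0.09 with overlapping groups.

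Genes that build and sulfate the chondroitin chains carried by the hyalectans were balanced, with 10 of 21 higher, 11 lower and a median log2 fold change of -0.04. Chsy3, a chain polymerase, had 26.3, 21.1 and 28.7 CPM in young and 19.1, 18.7 and 18.2 CPM in old, with separate groups (log2 fold change -0.44, SE 0.13, adjusted p = 0.141 from edgeR). Chst11, which adds sulfate at the chondroitin 4-position, had a log2 fold change of -0.55 (adjusted p = 0.173) with overlapping groups. The other sulfotransferases below an unadjusted p of 0.05 had very few reads, Chst7 with means of 0.505 and 0.282 CPM and Chst13 with 0.291 and 1.42 CPM in young and old. Dse, the epimerase that makes dermatan sulfate and the most abundant of the list, had a log2 fold change of -0.07 (SE 0.12, adjusted p = 0.74).

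**Figure D4:**
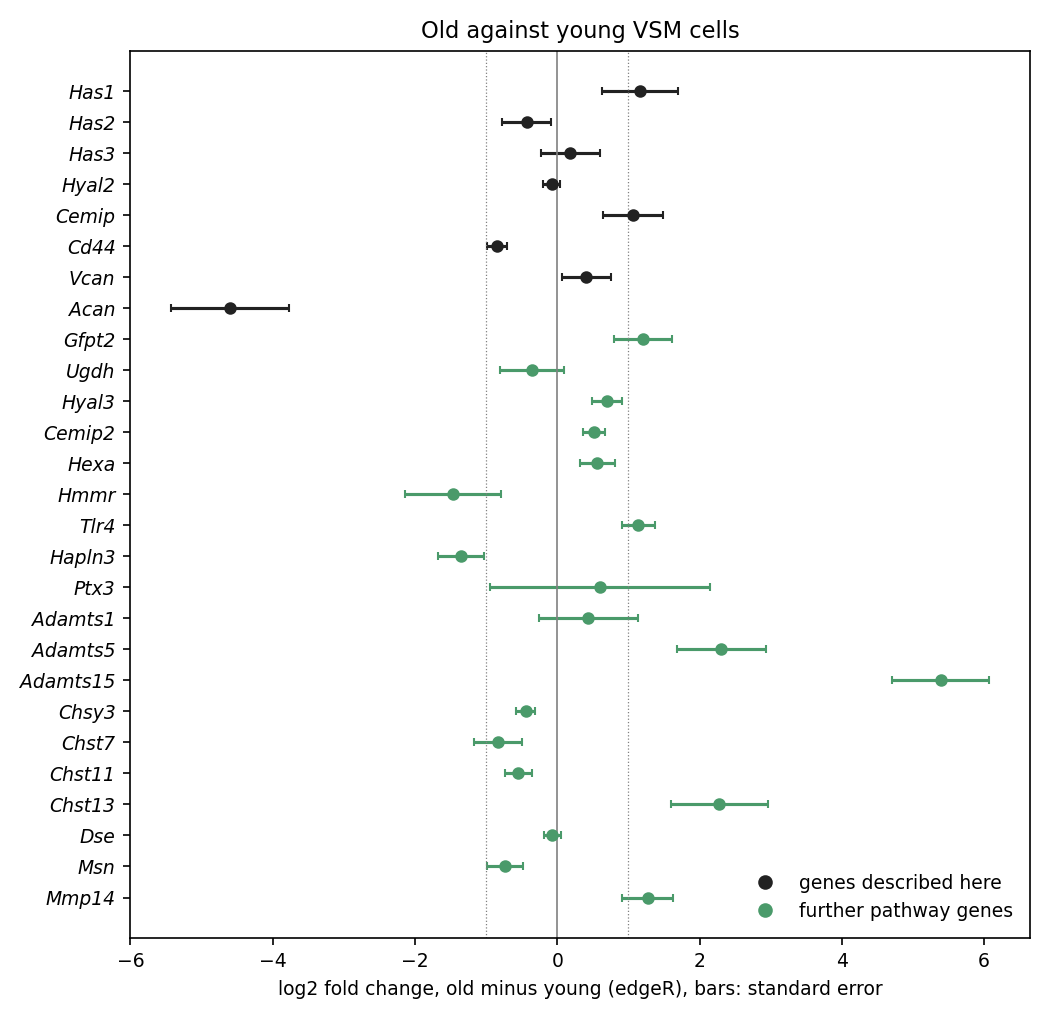
Log2 fold change of old against young from edgeR (points) with the standard error (bars) for the 8 genes (black) and the named genes of the wider pathway (green), with dotted lines at -1 and 1. Acan at -4.60 and Adamts15 at 5.39 lie at the ends of the scale, and Hyal2 and Dse lie near 0.

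Marker genes were summed in the same libraries. Of 10 contractile smooth muscle genes, 10 were lower in old, with a summed level of 11670 to 22060 CPM in young and 3595 to 5783 CPM in old, and DESeq2 called 9 as lower, against 3.31% of all genes, where edgeR and limma-voom called 0. Contractile transcripts were thus measured in both groups, at lower levels in old. Most of each sum was Acta2 and Tagln, while Myocd had means of 60.5 CPM in young and 7.22 CPM in old. These sums do not show how many of the cells were smooth muscle, and the make-up of the cultures was not tested. Of 10 fibroblast markers 9 had a row and 8 were higher, with overlapping sums of 679.6 to 1098 CPM in young and 1092 to 2030 CPM in old. DESeq2 called 2 of the 9 as higher, against 2.25% of all genes, where edgeR and limma-voom called 0. Separate groups were seen for 3 of the 9, against 29.2% of all genes in either direction. Mfap5, the 1 marker that was lower, had 595, 738 and 486 CPM in young and 494, 549 and 588 CPM in old. Dcn ranged from 26.0 to 411 CPM within old. The 10 proliferation genes were all lower, with 1 of them in separate groups, against 29.2% of all genes in either direction. For cartilage, where Acan is best known, 4 of 9 markers had a row. The defining markers Col2a1, Col9a1, Cnmd, Matn1 and Matn3 had none. The 4 markers summed to 54.3 to 76.8 CPM in young and 43.4 to 55.7 CPM in old, most of it Sox9. They were split in direction, each with overlapping groups. Sox9 (log2 fold change -0.58) and Chad (-0.39) were lower, while Comp (0.83) and Col11a2 (1.41) were higher. Of 10 endothelial markers 6 had a row (32.9 to 45.2 CPM), of 10 macrophage markers 2 (at most 2.90 CPM), of 8 Schwann cell markers 4 (13.7 to 86.6 CPM) and of 7 mesothelial markers 3 (5.33 to 39.7 CPM), with overlapping groups in each. Of 10 skeletal muscle markers 3 had a row, with sums of 72.1 to 150 CPM in young and 16.9 to 50.04 CPM in old. Myh1 made up most of the young sums (58.9 to 138 CPM), while Tnnt3 had means of 10.7 CPM in young and 20.2 CPM in old. The part of any of these in the values of Acan, Cd44 or the other genes was not tested.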

How the data were processed

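Gene counts of 6 libraries, 3 young and 3 old cultures of VSM cells, were used as deposited. The authors trimmed reads with Cutadapt 3.5 in Trim Galore 0.6.7, aligned them to the rat assembly Rnor 6.0 with STAR 2.7.10b and counted them with featureCounts (Subread 2.0.8), and the deposited counts are raw whole numbers per gene, with genes of low counts removed by the authors. Strand and mate settings were not stated, and 68.7% to 71.1% of counts from 1 to 19 were even, as counting by mate would leave. The main test was the quasi-likelihood F test of edgeR 4.0.16 in R 4.3.3 (TMM, age alone), and its SE is the absolute log2 fold change over the square root of F. DESeq2 1.42.0 (Wald test, independent filtering at 0.05), limma-voom (limma 3.58.1), other normalizations and filters, halved counts, a replicate block and leaving out each library were alternatives, and DESeq2 without each library was added after seeing the data. No 2 libraries of a group repeated each other (chi-square per gene at least 67.1, where sampling noise gives 1). The scripts were tested on simulated data. The paper gives 3 rats per age, so p-values measure the spread between those cultures. The genes and lists were chosen with earlier results of these data known. Named were the 8 genes, pathway genes with an unadjusted p under 0.05 in edgeR, the most abundant gene of each role, and the 3 genes most correlated with the gene of smallest p, while Adamts4, Ezr and Rdx were chosen after their values were seen, and 1 pathway gene that the rule names is not reported here. The paper names a RefSeq annotation of Rnor 6.0 for the counts, whereas their gene identifiers are from Ensembl. The reason for that difference was not stated. Promoter windows came from RefSeq (GRCr8), another assembly than the one the paper names.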

Additional observations from a re-analysis of the deposited data

How the results depend on the processing

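The 8 genes kept their direction in all alternatives with all 6 libraries, and only Has3 changed sign with a library left out (-0.083 in edgeR and -0.096 in DESeq2 without young replicate 2, and 0.52 and 0.53 without young replicate 3). Over all genes, edgeR called 1 DEG (732 without old replicate 1, and 0 to 5 without any other library), 97 with at least 10 counts in all 6 libraries and 724 with the likelihood ratio test, DESeq2 called 805, or 1377 without old replicate 1 and 737, 551, 600, 614 and 651 without young replicates 1, 2 and 3 and old replicates 2 and 3, and limma-voom called 0. The count of DEGs among the 8 genes was 0 in edgeR, 1 with DESeq2, the likelihood ratio test and without old replicate 1 (Acan each time), and 0 to 1 with a library left out, while DESeq2 with a library left out called 1 or 2. Of the 8 genes, 3 in edgeR and 4 in DESeq2 had an unadjusted p under 0.05, and without old replicate 3 these were 4 and 5. Without young replicate 2, young replicate 3 or old replicate 2 the count was 2 with either tool. Among the 58 pathway genes, edgeR called 0, 1 with the stricter filter (Adamts15), 6 with the likelihood ratio test and 0 to 6 with a library left out, and DESeq2 called 7, or 3, 5, 6 or 11 with a library left out. Pathway genes at an unadjusted p under 0.05 numbered 14, between 9 and 25 with a library left out, and 27 in DESeq2 without old replicate 1. The 25 and 27 came without old replicate 1, where DEGs over all genes also rose, to 732 in edgeR and 1377 in DESeq2. The share of all genes at that unadjusted p is not given for fits with a library left out. Nothing is read from these counts, nor from those of the 8 genes. Signs turned for Ptx3 without old replicate 2 (from -1.91 to 1.94 over the libraries left out), and without old replicate 3 for Adamts1 (from -0.53 to 0.85) and Dse (from -0.16 to 0.024, or 0.016 in DESeq2). The causes were not tested. Other normalizations and halved counts changed no call, and the median of all genes was between 0.01 and 0.03 under each scaling.

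Samples with the same replicate number did not deviate together in each pair (correlations of 0.03, 0.26 and 0.26 for numbers 1, 2 and 3), and not every library correlated best with its own number, so the numbers were not taken as a pairing. With the replicate block edgeR called 1 DEG, Adamts15, in place of the 1 without the block, and 0 of the 8 genes.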
